A study of Mus musculus with 9 samples.

Results

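Transcripts of 87 genes that build epithelial structures were measured in mouse pancreatic cancer cells: 44 keratins, 22 claudins and tight junction genes (Ocln and Epcam included), 12 desmosomal genes and 9 genes of small proline-rich (Sprr) proteins. They were defined by gene symbol, as every keratin, claudin, desmoglein, desmocollin, plakophilin and Sprr gene on the array, with Dsp, Jup, Ocln and Epcam, out of 18193 genes with a probe set of their own. This set of families was chosen with earlier results of these data known. The 87 genes had 125 single-gene probe sets, 63 of the genes had 1 probe set, and each gene was represented by its brightest. A further 4 probe sets, which match several keratin or Sprr genes at once, were kept apart.

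Keratins are the intermediate filament proteins of epithelial cells, formed by pairs of a type I and a type II chain. Desmosomes anchor these filaments at the cell border: desmogleins and desmocollins are the adhesive cadherins, and plakoglobin (Jup), the plakophilins and desmoplakin (Dsp) form the plaque that ties the cadherins to the filaments. Claudins and occludin form the tight junction strands that seal the space between cells. Sprr proteins are cross-linked by transglutaminases into the cornified envelope of stratified epithelia and are not typical products of the simple, keratin 8 and 18 positive epithelium that lines pancreatic ducts.

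The cells were line 170#3, a mouse pancreatic cancer line of mixed C57BL6, FVB and 129Sv background, kept in monolayer in DMEM with 10% serum. One group was stably transfected with beta-catenin, the co-activator of Wnt signalling and a partner of cadherins; the next with ICAT, an inhibitor that holds beta-catenin away from TCF factors; the last carried the control transfection. Each group had 3 arrays, which the series calls independent samples. The sources used here give neither the promoter of the transgenes nor whether a group was a clone or a pool. The p-values therefore cover the spread between cultures and not between transfections.

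The probe set of Ctnnb1, the beta-catenin gene, read 12.87, 12.89 and 12.89 on the log2 scale in beta-catenin cells and 13.00, 12.86 and 12.78 in ICAT cells, against 12.69, 12.67 and 12.70 in control cells. That of Ctnnbip1, the ICAT gene, read 8.76, 8.65 and 8.95 in ICAT cells and 8.64, 8.62 and 8.67 in control cells, a difference that was not called (limma adjusted p = 0.189). The sources do not say whether these 3′ probes match the transgenes, so neither gene checks the labels. ICAT arrays varied most, with a median SD per gene of 0.118, against 0.078 in beta-catenin and 0.0611 in control cells. Of the markers of pancreatic duct and carcinoma, Cdh1 (E-cadherin) did not exceed log2 3.56 on any array and Cftr stayed under 5, while Sox9 lay between 8.94 and 9.62. Vim (vimentin) lay between 13.76 and 14.28.

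Most of the 87 genes were dim or flat in these cells. On all 9 arrays 18 of them (20.7%) lay under log2 5, the limit chosen here for a measured level, against 14.6% of all 18193 genes. These were the keratins Krt2, Krt16, Krt17, Krt25, Krt26, Krt27, Krt28, Krt35 and Krt82, the claudins Cldn8, Cldn10, Cldn11 and Cldn23, the desmosomal cadherins Dsc1, Dsg1a and Dsg1b, and Sprr2f and Sprr2j-ps. Tests were made for the 62 members with at least 3 arrays at log2 5 or above (71.3%, against 83.7% of all genes). The other 7 members exceeded 5 on too few arrays: Krt7, Krt12, Krt13, Krt23, Cldn19, Dsg2 and Dsp. Close to the limit, Sprr2i (4.83 to 5.26, 6 arrays at 5 or above) was tested, and Krt7 (4.84 to 5.15, 2 arrays) was not.

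**Figure D1:**
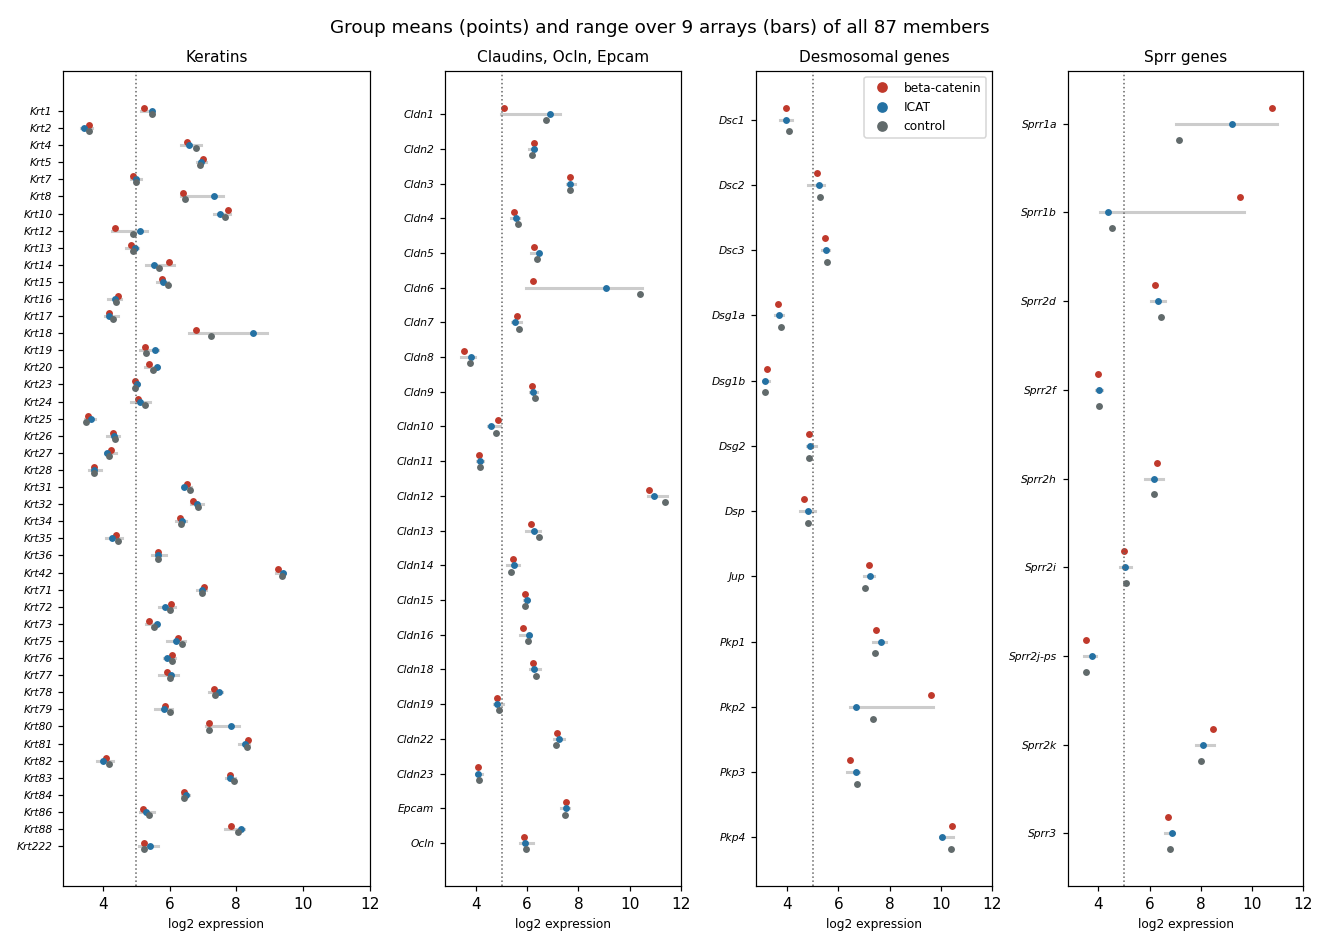
Mean log2 expression of all 87 genes in beta-catenin, ICAT and control cells (points; 3 arrays each), with a grey bar from the lowest to the highest of the 9 arrays and a dotted line at log2 5. Wide bars are few: Sprr1b, Sprr1a, Cldn6, Pkp2, Cldn1 and Krt18 stand out, and most of the other genes have group means that nearly coincide.

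Among the 62 tested members, 19 (30.6%) were called at a limma adjusted p under 0.05 in at least 1 of the 3 comparisons between groups, against 56.9% of all 15235 tested genes. In beta-catenin against control cells 4 members rose, against a background of 19.6% of all tested genes, and 5 fell, against 15.4%; in either direction these were 9 members (14.5%), against 34.9%. In ICAT against control cells 6 members rose (background 18.7%) and 4 fell (background 18.5%), 10 in all (16.1%), against 37.2%. In beta-catenin against ICAT cells 7 members were higher (background 22.5%) and 10 lower (background 17.9%), 17 in all (27.4%), against 40.4%. The shares of called members lay below the background in each comparison. At an unadjusted p under 0.05 the counts were 13, 12 and 23 members, against 42.7%, 43.9% and 47.2% of all tested genes. Arrays of the groups did not overlap for 7 members higher (background 27.8%) and 15 lower (26.3%) in beta-catenin against control cells, for 7 higher (22.9%) and 9 lower (23.3%) in ICAT against control cells, and for 8 higher (25.2%) and 11 lower (22.4%) in beta-catenin against ICAT cells. The median log2 difference over the tested members was -0.07, -0.01 and -0.06 in the same order of comparisons, and -0.03, -0.01 and -0.01 over all tested genes. Beta-catenin and ICAT cells were set against the same control arrays, so the comparisons are not independent of each other.

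Changes of at least 2-fold were limited to a few named members. In beta-catenin against control cells they were Sprr1a, Sprr1b and Pkp2 (higher, 4.84% of the tested members against 3.01% of all genes) and Cldn1 and Cldn6 (lower, 3.23% against 1.61%). In ICAT against control cells they were Sprr1a and Krt18 (higher, 3.23% against 2.49%) and Cldn6 (lower, 1.61% against 0.453%). In beta-catenin against ICAT cells they were Sprr1a, Sprr1b and Pkp2 (higher, 4.84% against 1.49%) and Cldn1, Cldn6 and Krt18 (lower, 4.84% against 2.48%). The number of members that fell in beta-catenin cells was 3 without control replicate 2, beta-catenin replicate 2 or beta-catenin replicate 3 and 8 without beta-catenin replicate 1. In beta-catenin against ICAT cells the 10 lower members became 5 without beta-catenin replicate 3 or ICAT replicate 2 and 17 without ICAT replicate 3.

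**Figure D2:**
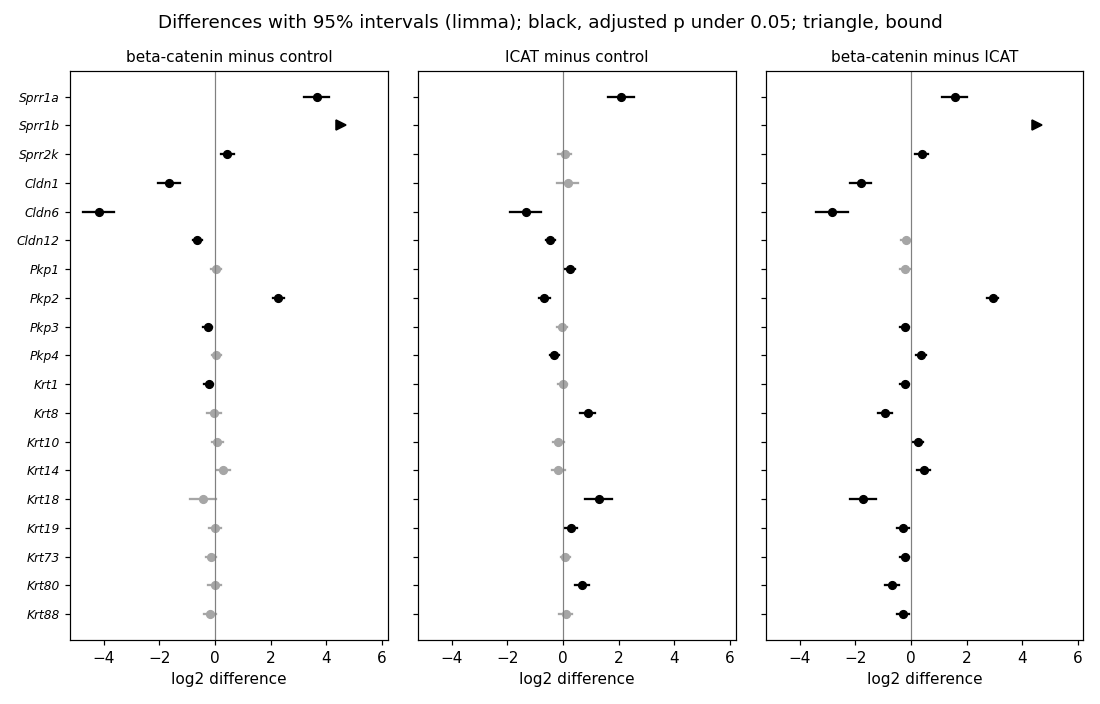
Log2 differences with 95% intervals (limma, 3 arrays per group) of the 19 members called in at least 1 comparison, for beta-catenin minus control, ICAT minus control and beta-catenin minus ICAT; black points have an adjusted p under 0.05. The triangles of Sprr1b (4.52) are lower bounds, with arrays under log2 5 set to 5, and its ICAT minus control value is left out. Cldn6 reaches -4.17 in beta-catenin minus control, and Pkp2 has opposite signs in the first and second panels.

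Among the tested members, the largest increases over control were those of Sprr genes. Sprr1b read 9.38, 9.50 and 9.69 in beta-catenin cells and 4.74, 4.33 and 4.06 in ICAT cells, against 4.50, 4.51 and 4.57 in control cells. All ICAT and control arrays were thus below log2 5, and the gene was tested only because of its beta-catenin arrays. It averaged 9.52 in beta-catenin cells and 4.53 in control cells, so only a bound can be given: at least 23.0-fold higher, or 4.52 on the log2 scale, with arrays below 5 set to 5. The limma adjusted p of 1.01e-09 is a description and no support, since a gene that passes the filter only through its high group had to differ. ICAT and control cells, both below the limit, have no sure order. With cell populations measured in bulk, fewer cells of a type and less RNA per cell cannot be told apart, here and below.

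Sprr1a, whose protein is the close relative of Sprr1b, rose in both transfected groups. It read 10.67, 10.75 and 10.95 in beta-catenin cells and 8.6, 9.46 and 9.60 in ICAT cells, against 7.03, 7.08 and 7.31 in control cells. The 3 groups did not overlap, with beta-catenin cells highest and control cells lowest. The rise was 12.5-fold in beta-catenin cells (log2 difference 3.65, SE 0.209, adjusted p = 1.59e-07) and 4.22-fold in ICAT cells (2.08, adjusted p = 2.15e-05), and beta-catenin cells exceeded ICAT cells 2.97-fold (adjusted p = 0.000118). ICAT replicate 1 was the lowest of its group.

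Sprr2k made a smaller rise. It read 8.5, 8.5 and 8.42 in beta-catenin cells and 8.25, 8.18 and 7.81 in ICAT cells, against 8.05, 8.13 and 7.88 in control cells. Beta-catenin arrays lay above all others, 1.37-fold over control cells (log2 difference 0.45, adjusted p = 0.00657) and 1.31-fold over ICAT cells (0.39, adjusted p = 0.0123), while ICAT and control arrays overlapped (adjusted p = 0.732). The other tested Sprr genes, Sprr2d, Sprr2h, Sprr2i and Sprr3, were not called in any comparison, with differences from -0.23 to 0.11 in beta-catenin against control cells and from -0.10 to 0.10 in ICAT against control cells.

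The Sprr genes lie in 1 run on mouse chromosome 3, in the RefSeq gene order Lelp1, the Sprr2 genes up to Sprr2k, Sprr1b, Sprr3, Sprr1a, Sprr4 and Ivl. Sprr3, between Sprr1b and Sprr1a, read 6.82, 6.76 and 6.61 in beta-catenin cells and 6.89, 6.96 and 6.78 in ICAT cells, against 6.79, 6.80 and 6.74 in control cells. Its differences from control were -0.05 (adjusted p = 0.662) and 0.10 (adjusted p = 0.372). Lelp1, at one end, was not called (-0.10 and -0.03), and Ivl, which encodes the envelope protein involucrin, was too dim to test (4.80 to 5.21). Large differences and flat values therefore alternated within the run.

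**Figure D3:**
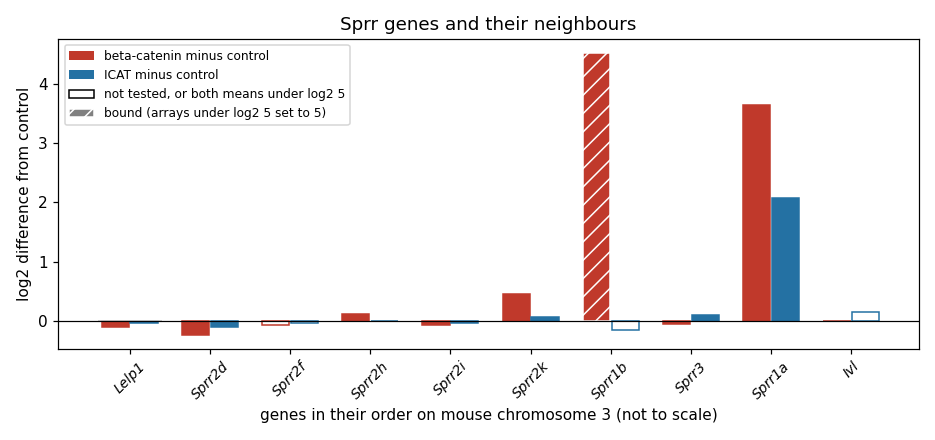
Log2 difference from control (bars from 0) of beta-catenin and ICAT cells for the Sprr genes with a probe set of their own and their outer neighbours Lelp1 and Ivl, in their order on mouse chromosome 3 and not to scale; open bars were not tested. Hatched bars are bounds with arrays under log2 5 set to 5, and open bars also mark genes whose means were both under 5. The tall bars of Sprr1b (at least 4.52) and Sprr1a (3.65 and 2.08) flank Sprr3, whose bars are close to 0.

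The 250 bases before the start of the 3 called Sprr genes and of Sprr3 are shown because these neighbours differed in response. They are from RefSeq on assembly GRCm38.p6, written along each gene's own strand: Sprr1a chr3:92485882-92486131 (minus strand), Sprr1b chr3:92438780-92439029 (minus strand), Sprr2k chr3:92432332-92432581 (plus strand) and Sprr3 chr3:92458721-92458970 (minus strand). Capitals mark matches on either strand to TGANTCA, a loose form of the AP-1 motif with any base (N) in the middle, and to TATAAA, the TATA box.
Sprr1a: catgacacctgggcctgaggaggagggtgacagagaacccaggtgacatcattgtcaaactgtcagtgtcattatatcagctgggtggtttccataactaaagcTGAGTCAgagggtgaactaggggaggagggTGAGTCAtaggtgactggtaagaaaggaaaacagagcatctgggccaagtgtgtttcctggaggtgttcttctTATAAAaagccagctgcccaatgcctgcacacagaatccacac
Sprr1b: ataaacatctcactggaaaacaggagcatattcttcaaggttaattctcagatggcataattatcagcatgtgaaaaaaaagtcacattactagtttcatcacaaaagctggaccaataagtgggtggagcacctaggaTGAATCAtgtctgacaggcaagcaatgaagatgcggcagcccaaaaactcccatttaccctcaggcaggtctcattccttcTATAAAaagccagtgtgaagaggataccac
Sprr2k: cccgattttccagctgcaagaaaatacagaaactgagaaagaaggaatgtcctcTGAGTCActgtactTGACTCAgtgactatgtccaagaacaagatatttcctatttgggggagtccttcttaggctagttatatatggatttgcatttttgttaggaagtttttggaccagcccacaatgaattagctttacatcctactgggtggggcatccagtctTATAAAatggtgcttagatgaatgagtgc
Sprr3: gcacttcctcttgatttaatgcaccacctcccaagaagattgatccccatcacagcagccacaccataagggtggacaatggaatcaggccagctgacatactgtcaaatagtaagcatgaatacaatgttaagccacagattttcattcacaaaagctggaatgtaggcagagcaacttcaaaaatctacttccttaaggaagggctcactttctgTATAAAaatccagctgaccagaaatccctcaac
The AP-1 letters begin 146 and 116 bases before the start in Sprr1a, 111 bases in Sprr1b, and 196 and 182 bases in Sprr2k. No match to them was found in the Sprr3 window.

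Of the 87 genes, 60 had a promoter in the RefSeq table, 8 of them Sprr genes. The AP-1 letters were found in 7 of these 8, all but Sprr3, against 6.73% of 32536 promoters of the same length. The match of Sprr1b was TGAATCA, and those of the other Sprr genes were TGAGTCA or TGACTCA. Sprr1b, like Sprr3, thus had no match with C or G in the middle. Sprr2d, Sprr2h and Sprr2i, which were not called, and Sprr2f, under 5 throughout, also held them, so the letters were shared by Sprr genes that differed between groups and by Sprr genes that did not. All 8 held the TATA letters, against 12.3% of promoters, and none held the TCF/LEF letters CTTTGAA or CTTTGAT, against 7.5%. Among the Sprr2 genes the places nearly coincided, with an AP-1 match 193 to 198 bases and the TATA letters 29 bases before the start. These neighbours of 1 family are therefore not separate observations in the shares above. Some genes had several promoters in the table. Of 32 keratin promoters (31 genes), 2 held the AP-1 letters (6.25%, both of Krt13) and 15 the TATA letters (46.9%). Of 27 claudin and tight junction promoters (18 genes), 15 held the GC box letters GGGCGG (55.6%), against 33.0% of all and 1 of the 8 Sprr promoters. These matches are descriptions of letters and not of bound factors.

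Among the keratins, the simple-epithelial pair Krt8 and Krt18 rose in ICAT cells. Krt18, the type I partner, read 6.57, 6.90 and 6.89 in beta-catenin cells and 7.87, 8.92 and 8.75 in ICAT cells, against 7.27, 7.24 and 7.19 in control cells. Every ICAT array lay above, and every beta-catenin array below, the control arrays. The rise in ICAT cells was 2.43-fold (log2 difference 1.28, SE 0.212, adjusted p = 0.000636), and the value in beta-catenin cells, -0.44, was not called (95% interval -0.91 to 0.03, adjusted p = 0.138). Without ICAT replicate 1 it was called at the same size (limma adjusted p = 0.00316). The fall was also called with only the 2 groups fitted (-0.44, adjusted p = 0.00421) and with array weights (-0.36, adjusted p = 0.0263). The SD of Krt18 was 0.188 in beta-catenin, 0.56 in ICAT and 0.0413 in control cells, and the main model shares 1 spread over the groups.

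Krt8, the type II partner, read 6.33, 6.38 and 6.51 in beta-catenin cells and 7.04, 7.60 and 7.38 in ICAT cells, against 6.41, 6.49 and 6.46 in control cells. Only the ICAT arrays stood apart, 1.85-fold above control (log2 difference 0.89, SE 0.116, adjusted p = 0.00013). Its other 2 probe sets gave 2.46-fold and 1.63-fold rises in ICAT cells (adjusted p over all probe sets = 2.25e-05 and 0.000298) and differences of -0.04 and 0.06 in beta-catenin cells. Krt8 and Krt18 are neighbours on chromosome 15, and the genes on either side, Krt78 (0.12) and Eif4b (0.00), were not called in ICAT against control cells.

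Krt80, a type II keratin, followed with 7.10, 7.14 and 7.25 in beta-catenin cells and 7.56, 7.92 and 8.07 in ICAT cells, against 7.20, 7.23 and 7.11 in control cells. Its ICAT arrays did not overlap the others, 1.60-fold above control (log2 difference 0.68, adjusted p = 0.000598). Krt19, a type I keratin of ducts, was dim, at 5.26, 5.43 and 5.10 in beta-catenin cells and 5.40, 5.60 and 5.66 in ICAT cells, against 5.24, 5.37 and 5.22 in control cells. Its 1.21-fold rise in ICAT cells was close to the threshold (log2 difference 0.28, adjusted p = 0.0402). Krt7, the usual type II keratin of ducts, was too dim to test.

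Markers of fibroblasts and mesenchyme moved in the same arrays as these keratins. Of 11 tested, 8 rose (72.7%, against 18.7% of all tested genes) and none fell (against 18.5%) in ICAT against control cells, among them Pdgfra (4.04-fold), Postn (3.87-fold) and Col1a1 (3.63-fold), and the mean level of the list was 9.27 to 9.47 in ICAT cells and 8.57 to 8.61 in control cells. In beta-catenin cells 3 rose and 3 fell (27.3% each, against 19.6% and 15.4% of all genes), with a mean level of 8.66 to 8.82. Lum and Fap were under 5 throughout. Of 8 tested markers of duct and carcinoma, some of them members, Pdx1 alone was called with beta-catenin (1.39-fold higher). That was 12.5% higher and none lower, against 19.6% and 15.4% of all tested genes. With ICAT 4 were higher (50%, against 18.7%), the members Krt18, Krt8 and Krt19 as above and Sox9 (1.45-fold). Pdx1 was lower with ICAT (1.17-fold, 12.5% of the list, against 18.5%). The part of these markers in the keratin, claudin and plakophilin values was not tested. Of 6 tested immune and endothelial markers none was called in ICAT against control cells (0 also at an unadjusted p under 0.05, limma), and Ptprc, Itgam and Cdh5 stayed under 5. Cd14 alone was called lower in beta-catenin than in control cells (16.7%, against 15.4% of all tested genes) and than in ICAT cells (16.7%, against 17.9%).

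**Figure D4:**
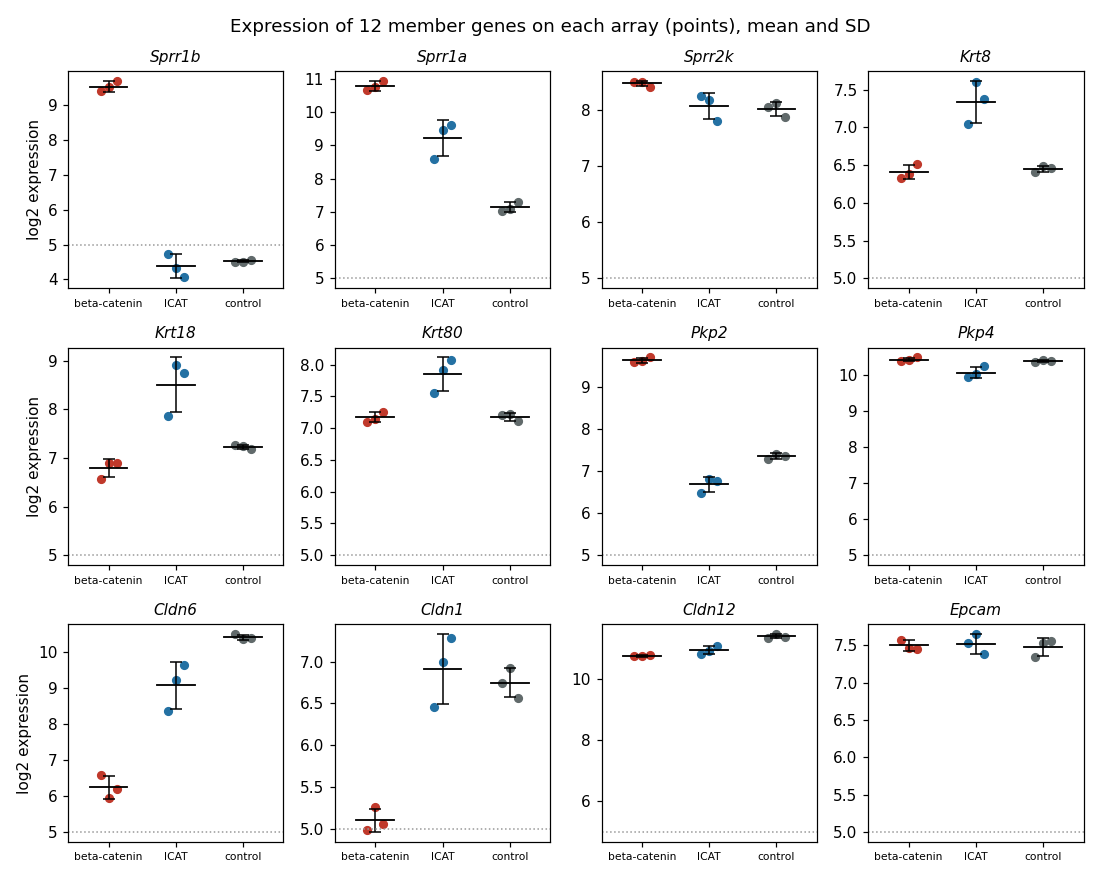
Log2 expression of 12 genes on each array (points) of beta-catenin, ICAT and control cells, with the mean and SD of each group (n = 3) and a dotted line at log2 5; each panel has its own axis. Krt8, Krt18 and Krt80 are raised in the ICAT column, Sprr1b and Pkp2 in the beta-catenin column, and Epcam is level across the groups.

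Of the keratins of stratified epithelium, Krt14, the basal keratin, was 1.38-fold higher in beta-catenin than in ICAT cells. It read 5.96, 6.12 and 5.87 in beta-catenin cells and 5.51, 5.76 and 5.29 in ICAT cells, with 5.75, 5.67 and 5.63 in control cells. The difference between beta-catenin and ICAT cells was 0.46 (adjusted p = 0.00531), but that between beta-catenin and control cells, 0.30, was not called (adjusted p = 0.0527). The probe set is of a type that can match related sequences. The other 2 probe sets of Krt14 were not called in any comparison, and 1 of them ran the other way between beta-catenin and ICAT cells (-0.14). Krt5, the basal partner of Krt14, lay between 6.82 and 7.09 and was not called.

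The remaining keratin calls were small. Krt1, the suprabasal keratin, was 1.17-fold lower with beta-catenin than in control cells (-0.22, adjusted p = 0.0372), with 5.41, 5.15 and 5.18 in beta-catenin cells against 5.49, 5.45 and 5.47 in control cells. Against ICAT cells, beta-catenin cells were lower in Krt1 (-0.22, adjusted p = 0.0352), Krt73, a keratin of the hair root sheath (-0.22, adjusted p = 0.0337), and Krt88 (-0.28, adjusted p = 0.0482), and higher in Krt10, the suprabasal partner of Krt1 (0.25, adjusted p = 0.0351). The 22 other tested keratins were not called, with differences from -0.27 to 0.07 in beta-catenin and from -0.20 to 0.18 in ICAT against control cells. One untested keratin, Krt12, read 4.54, 4.27 and 4.27 in beta-catenin cells and 4.98, 5.04 and 5.31 in ICAT cells, against 4.97, 4.87 and 4.90 in control cells. Its groups did not overlap, but its values lay around or under the limit and their differences have no sure size.

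Among the desmosomal genes, Pkp2, an armadillo-repeat protein of the plaque and a relative of beta-catenin in structure, moved in opposite directions. It read 9.58, 9.60 and 9.69 in beta-catenin cells and 6.47, 6.80 and 6.77 in ICAT cells, against 7.28, 7.41 and 7.36 in control cells. The groups were fully apart, with a 4.83-fold rise in beta-catenin cells (log2 difference 2.27, SE 0.0894, adjusted p = 9.71e-09) and a 1.59-fold fall in ICAT cells (-0.67, adjusted p = 0.000149). Beta-catenin cells exceeded ICAT cells 7.68-fold (2.94, adjusted p = 1.83e-09). Its other probe sets differed among themselves. The first repeated both changes (4.0-fold higher in beta-catenin cells, adjusted p over all probe sets = 1.12e-08, and -0.45 in ICAT cells, 0.00148), the next was not called (0.09 and -0.16), and the last had every group mean under the limit.

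Pkp4, a plakophilin-related protein of cell junctions, read 10.38, 10.41 and 10.48 in beta-catenin cells and 9.95, 10.01 and 10.23 in ICAT cells, against 10.35, 10.40 and 10.37 in control cells. It fell 1.24-fold in ICAT cells (-0.31, adjusted p = 0.00785), and its second probe set gave -0.39 (adjusted p over all probe sets = 0.00551). With beta-catenin Pkp3 fell 1.2-fold (-0.26, adjusted p = 0.0188), and with ICAT Pkp1 rose 1.19-fold (0.25, adjusted p = 0.0407). Of the 4 plakophilins, Pkp2 was thus called in both comparisons with control, Pkp3 with beta-catenin, and Pkp1 and Pkp4, in opposite directions, with ICAT.

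Jup, or plakoglobin, the desmosomal relative of beta-catenin, was not called, although its transfected arrays lay above the control arrays. It read 7.24, 7.18 and 7.16 in beta-catenin cells and 7.19, 7.37 and 7.12 in ICAT cells, against 6.98, 7.05 and 7.11 in control cells, with differences of 0.15 (adjusted p = 0.166) and 0.18 (adjusted p = 0.0837). Dsp, the linker to keratin filaments, lay between 4.51 and 5.08 at its brightest probe set, and none of its 3 probe sets passed the filter. The others did not lie level. One read 5.46, 4.83 and 5.49 in beta-catenin cells and 4.13, 4.13 and 3.95 in ICAT cells, against 3.81, 4.0 and 3.9 in control cells, and the other 4.7, 4.82 and 4.86 in beta-catenin cells and 4.27, 4.7 and 4.65 in ICAT cells, against 4.28, 4.05 and 4.04 in control cells. At both, every beta-catenin array lay above the control arrays, but the values were untested and mostly under the limit, so the differences have no sure size. Dsg2, the desmoglein of simple epithelia, lay between 4.76 and 5.11, and none of its 6 probe sets passed the filter. The desmosomal cadherins Dsc2 and Dsc3 were tested and not called.

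**Figure D5:**
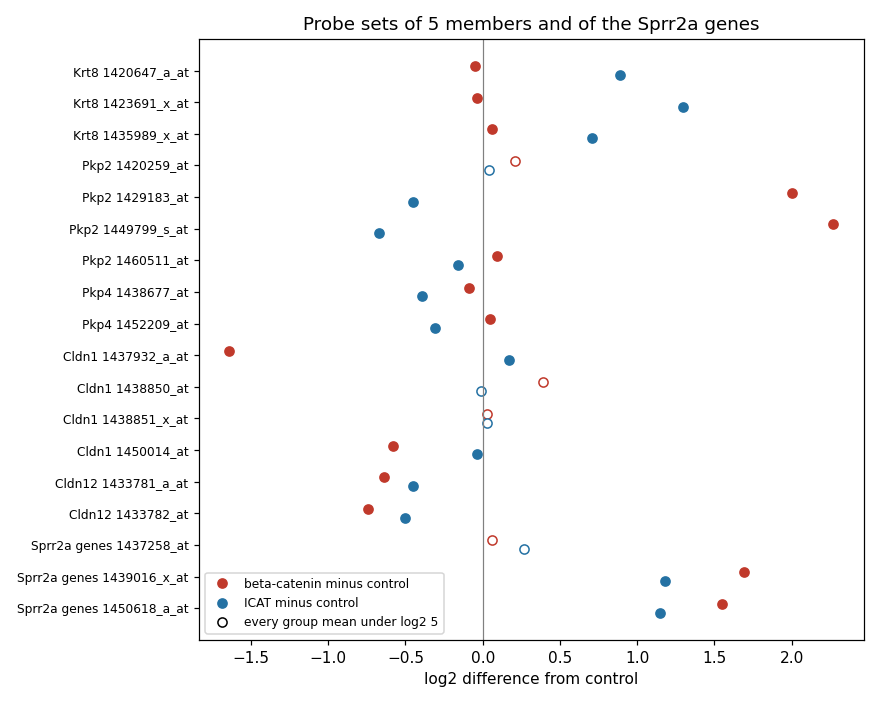
Log2 difference from control of beta-catenin and ICAT cells for each probe set of Krt8, Pkp2, Pkp4, Cldn1 and Cldn12 and for the probe sets shared by Sprr2a genes; open points have every group mean under log2 5. For Pkp2 the upper and lower probe sets of the 4 are at 0.21 and 0.09 in beta-catenin cells and the others at 2.0 and 2.27.

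Among the tested members, the largest decreases from control were those of claudins. Cldn6, a claudin of embryonic epithelia, read 6.57, 5.95 and 6.19 in beta-catenin cells and 8.36, 9.21 and 9.63 in ICAT cells, against 10.49, 10.35 and 10.39 in control cells. The 3 groups did not overlap. It fell 18-fold in beta-catenin cells (log2 difference -4.17, SE 0.257, adjusted p = 2.75e-07) and 2.54-fold in ICAT cells (-1.34, adjusted p = 0.00162). Its neighbour on chromosome 17, Cldn9, was not called at its brightest probe set (-0.13 and -0.08). The second was under the limit on every array and untested. It read 3.72, 3.73 and 3.77 in beta-catenin cells and 3.9, 4.43 and 4.74 in ICAT cells. In control cells it read 4.59, 4.33 and 4.48, and the differences have no sure size. With the mean of both probe sets, Cldn9 was called lower in beta-catenin than in control cells (-0.43, limma adjusted p = 0.00141) and ICAT cells (-0.33, 0.00588). Tnfrsf12a, a receptor gene on the other side of Cldn6, fell by 0.91 in beta-catenin and by 0.41 in ICAT cells on the log2 scale (adjusted p = 4.16e-06 and 0.00185).

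Cldn1, a barrier-forming claudin, fell in beta-catenin cells. It read 4.98, 5.26 and 5.06 in beta-catenin cells and 6.46, 7.0 and 7.28 in ICAT cells, against 6.74, 6.92 and 6.57 in control cells. Beta-catenin arrays lay 3.13-fold below control, close to the limit (log2 difference -1.64, SE 0.173, adjusted p = 1.9e-05), and ICAT and control arrays overlapped (0.17, adjusted p = 0.519). Without ICAT replicate 1 that difference was called at 0.39 (adjusted p = 0.0278). A second tested probe set gave a smaller fall of 1.49-fold (-0.58, adjusted p over all probe sets = 0.00624). The 2 others were under the limit on every array and untested. One ran the other way, with 3.87, 3.77 and 3.67 in beta-catenin and 3.32, 3.44 and 3.33 in ICAT cells. In control cells it read 3.41, 3.45 and 3.27, and the differences have no sure size. The last differed by 0.03 between beta-catenin and control cells.

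Cldn12, which was bright, fell in both transfected groups. It read 10.73, 10.73 and 10.77 in beta-catenin cells and 10.82, 10.92 and 11.07 in ICAT cells, against 11.34, 11.45 and 11.37 in control cells. The fall was 1.56-fold with beta-catenin (-0.64, adjusted p = 3.09e-05) and 1.37-fold with ICAT (-0.45, adjusted p = 0.000504). Beta-catenin and ICAT cells differed by -0.19 without a call (adjusted p = 0.054), and by -0.23 with one at the second probe set (adjusted p over all probe sets = 0.0139). The other 14 tested genes of this family were not called. Among them were Cldn4 (5.38 to 5.67), Cldn7 (5.40 to 5.76), the strand protein gene Ocln (5.71 to 6.21) and Epcam, an epithelial adhesion molecule that binds claudins (7.34 to 7.65). The probe set of Epcam is of the type named above for Krt14, and its other probe set was dimmer (5.48 to 5.93) and not called. The other probe set of Ocln was under the limit on every array (3.45 to 3.8) and was not tested.

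In beta-catenin against ICAT cells, the largest differences were those of Sprr1b (at least 23.0-fold higher in beta-catenin cells, with all ICAT arrays under the limit), Pkp2 and Cldn6 (-2.83, 7.11-fold lower, adjusted p = 7.36e-06). Cldn1 was 3.51-fold lower in beta-catenin cells (-1.81, adjusted p = 1.08e-05), Krt18 3.30-fold (-1.72, adjusted p = 6.87e-05), Krt8 1.91-fold (-0.93, adjusted p = 7.37e-05) and Krt80 1.61-fold (-0.69, adjusted p = 0.000457). Pkp4 was 1.28-fold higher (0.36, adjusted p = 0.00296), and Pkp3 and Krt19 were lower by small amounts (-0.22, adjusted p = 0.0339, and -0.29, adjusted p = 0.0324).

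Of the 10 members called in ICAT against control cells, ICAT replicate 1 was the lowest ICAT array for 9, all but Pkp1. Over all 5670 genes called in that comparison it was the lowest for 38.1%. For Sprr1a, Krt8, Krt18, Krt19 and Krt80 this array was the nearest to control, and for Cldn6, Cldn12, Pkp2 and Pkp4 the farthest from it. Without ICAT replicate 1, 6 members rose and 5 fell in ICAT cells.

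Of 36 calls of a member in a comparison, 21 held under all 18 alternatives, 4 (those of Sprr1b and Cldn1) held under the 15 and 17 in which the gene was tested, and 11 were lost under at least 1, most of them by leaving out an array. For Sprr1b this is no support, since it passed the filter only through its beta-catenin arrays. The range of the adjusted p over the arrays whose removal ended the call follows. In beta-catenin against control cells, Krt1 lost its call on removal of any control array, or of replicate 2 or 3 of beta-catenin (0.0804 to 0.159), and Pkp3 on removal of the second control array, or of replicate 2 or 3 of beta-catenin (0.0527 to 0.0943). In ICAT against control cells, Krt19 lost it without replicate 1 or 3 of control, 1 of beta-catenin, or 2 or 3 of ICAT (0.054 to 0.126), and Pkp1 without any of the control arrays, replicate 2 of beta-catenin, or 1 or 2 of ICAT (0.0558 to 0.146).

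In beta-catenin against ICAT cells, Krt1 and Krt88 lost their calls on removal of any control array, of replicate 2 or 3 of beta-catenin, or of 1 or 2 of ICAT (0.0527 to 0.15 for Krt1, 0.0633 to 0.196 for Krt88). Krt10 was lost without any array other than ICAT replicate 3 (0.051 to 0.11). Krt19 and Krt73 were lost without replicate 1 or 3 of beta-catenin, or 2 or 3 of ICAT (0.0713 to 0.138 for Krt19, 0.0614 to 0.12 for Krt73). Pkp3 was lost without replicate 3 of control, 2 or 3 of beta-catenin, or 1 or 2 of ICAT (0.0521 to 0.153). The call of Krt14 was lost only when the mean of its probe sets was taken (adjusted p = 0.0845).

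Leaving out 1 array also added calls, for 26 of the 150 pairs of a tested member and a comparison that had none. In beta-catenin against control cells these were Cldn13 without any 1 ICAT array (-0.32, limma adjusted p = 0.00105 to 0.0439), Krt18 as above, Sprr2d without ICAT replicate 2 (-0.23), Krt4 without ICAT replicate 3 or beta-catenin replicate 1 (-0.36 to -0.27), Cldn16 and Krt88 without beta-catenin replicate 1 (-0.27 and -0.31), and Krt14 without ICAT replicate 2 or 3 or beta-catenin replicate 3 (0.3 to 0.36). In ICAT against control cells they were Cldn1 as above, Cldn14, Jup and Krt10 without ICAT replicate 3 (0.26, 0.23 and -0.24), Krt14 and Krt72 without ICAT replicate 2 (-0.28 and -0.27), and Sprr1b, under the limit in both groups, without ICAT replicate 1.

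In beta-catenin against ICAT cells, the removal of ICAT replicate 3 added Cldn13, Cldn14, Cldn16, Krt20, Krt32, Krt42, Krt77, Krt78 and Pkp1 on the lower side (-0.3 to -0.18). Of these, Cldn16, Krt20, Krt42 and Pkp1 were also called without beta-catenin replicate 1, and Krt20 without control replicate 1 or 3. Cldn12 was called without ICAT replicate 1 (-0.25), and Krt72 and Krt76, both higher, without ICAT replicate 2 (0.31) and beta-catenin replicate 2 (0.22). The adjusted p of these gained calls was between 0.00354 and 0.0498.

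Genes that work beside these structures were read from lists, to be set against the 19.6% of all tested genes called higher and 15.4% called lower with beta-catenin, and the 18.7% and 18.5% with ICAT. Of 26 tested partners at adherens and tight junctions, 5 were called higher (19.2%) and 9 lower (34.6%) with beta-catenin, and 7 higher (26.9%) and 4 lower (15.4%) with ICAT, so that the higher genes with beta-catenin were close to the background. F11r, which encodes the junctional adhesion molecule JAM-A, averaged 9.48 ± 0.023 in beta-catenin and 9.26 ± 0.0579 in ICAT cells, against 8.00 ± 0.0653 in control cells (SD, n = 3 each), rises of 2.78-fold and 2.39-fold (limma adjusted p = 1.62e-08 and 2.13e-07). Cgnl1, which encodes paracingulin, fell 1.89-fold in beta-catenin cells and rose 1.51-fold in ICAT cells. Cxadr, a receptor of tight junctions, fell 1.23-fold and rose 2.17-fold. Cgnl1 and Cxadr were the only partners called in opposite directions. Higher with both were F11r, Jam3, Ctnnd1 and Ctnnb1, and lower with both were Cdh2, Afdn and Pard3. Pard6b had the largest fall of the list with beta-catenin and was not called with ICAT. Cdh2 (N-cadherin) fell 1.95-fold and 1.63-fold, in a line whose E-cadherin gene was under the limit.

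Other envelope genes moved little. Of 22 tested genes of cornified-envelope proteins and enzymes, Sbsn (suprabasin) alone rose in beta-catenin cells (1.91-fold) and Ppl (periplakin), an envelope and desmosome protein, alone rose in ICAT cells (1.47-fold). Each was 4.55% of the list, against 19.6% and 18.7% of all tested genes. None of the 22 fell in either comparison (against 15.4% and 18.5%), and at an unadjusted p under 0.05 the counts of lower genes were 1 and 0. Of 10 tested keratinocyte markers, Krt1 alone fell in beta-catenin cells (10%, against 15.4%) and none rose (against 19.6%). None was called in ICAT cells, against 18.7% higher and 18.5% lower of all genes (limma, 0 also at an unadjusted p under 0.05). Krt16, Krt17, Dsg1a and Col17a1 were under 5 throughout. Of 10 tested hemidesmosome and keratin-linked genes, 1 was called higher (10%) and 2 lower (20%) with beta-catenin, few genes against a background of 19.6% and 15.4%, among them Itga6, the integrin subunit of hemidesmosomes, which fell 3.70-fold. With ICAT 3 were higher and 3 lower (30% each, against 18.7% and 18.5%). Eppk1 (epiplakin), the 1 gene higher with beta-catenin, was also higher with ICAT, by 1.64-fold. Itga6 and Cd151, the 2 genes lower with beta-catenin, were also lower with ICAT, together with Pnn.

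Among 15 tested epithelial transcription and splicing factors, 1 was called higher (6.67%) and 4 lower (26.7%) with beta-catenin, against 19.6% and 15.4% of all genes, and 3 higher (20%) and 1 lower (6.67%) with ICAT, against 18.7% and 18.5%. Bnc1, the gene of the epithelial zinc finger protein basonuclin, averaged 4.73 ± 0.27 in beta-catenin and 8.16 ± 0.0934 in ICAT cells, against 6.4 ± 0.132 in control cells (SD, n = 3 each), at least 2.65-fold lower and 3.38-fold higher (adjusted p = 1.05e-06 and 1.76e-06). Klf4 also fell in beta-catenin cells (1.33-fold) and rose in ICAT cells (1.35-fold). Bnc1 and Klf4 were the only factors of the list called in opposite directions. Klf5 was lower with both, Foxa1 was the 1 factor higher with beta-catenin, and Gata3 was higher with ICAT. Among 9 tested factors known to repress epithelial genes, 2 were called higher with beta-catenin (22.2%, close to the 19.6% of all genes), Snai1 and Twist2. Lower with beta-catenin were 3 (33.3%, against 15.4%), Foxc2 by 4.77-fold, Snai2 by 1.69-fold and Twist1. With ICAT 4 were higher (44.4%, against 18.7%), among them Tcf4, Prrx1 and Snai2, and 2 were lower (22.2%, against 18.5%), Foxc2 and Twist2. Of 10 tested intermediate filament genes other than keratins, Nes (nestin) rose in both, 1.39-fold in beta-catenin and 1.19-fold in ICAT cells. Vim (1.38-fold) and Gfap (1.19-fold) were lower with beta-catenin, and the lamin genes Lmna (1.2-fold) and Lmnb2 with ICAT. In each comparison that was 10% higher, against 19.6% and 18.7% of all genes, and 20% lower, against 15.4% and 18.5%.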

How the data were processed

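Affymetrix arrays were hybridised with RNA of 9 cultures after 3′ IVT labelling, per the labels' protocols. The deposited table holds log2 values, 1 per probe set and array. Per the submitters' processing notes, the authors used RMA and affy; no version is named in the sources used here. RMA shrinks the differences of dim probe sets and would hide a shift of all genes. Array medians lay between 6.21 and 6.29, and no 2 arrays were identical.

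Of 45037 probe sets, 34945 had 1 symbol in the platform annotation, 932 several and 9160 none. The brightest single-gene probe set stood for each gene, and the 15235 genes that reached log2 5 on 3 or more arrays were tested. In R 4.3.3, limma 3.58.1 fitted 1 model of group means over the 9 arrays together (residual degrees of freedom 6, prior 5.03), with two-sided tests, Benjamini-Hochberg adjustment over all genes in each comparison and a call at an adjusted p under 0.05. Other probe sets were tested in a fit of all probe sets. Arrays under 5 in a group whose mean is under 5 were set to 5 for a printed fold. The limit of 5 is a choice, since no detection calls were used here. The number of arrays limits the precision: an exact permutation test of 3 against 3 cannot go below 0.1, so none was run. The fit was tested on simulated data.

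The members and the lists of other genes were chosen with earlier results of these data known. Members called in any comparison were named, with values on every array for up to 4 of a family with the largest differences, as were Krt7, Krt8, Krt18, Krt19, Dsp, Jup, Ocln, Epcam, Cldn4, Cldn7, Sprr1a and Sprr1b; other members named, among them Krt5, Krt12, Sprr3, Dsg2, Dsc2 and Dsc3, and the array values beyond those 4 of a family, were chosen after their values were seen. Of the lists, up to 3 called genes each way could be named. The junction partners named beyond that number were added after their values were seen. Alternatives were other filters, the 2 groups compared alone, a replicate block, array weights, an intensity trend, other choices of probe set and leaving out each array.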

Additional observations from a re-analysis of the deposited data

Results flagged for a closer look

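Pkp2 differed between the transfected groups under the same contrast with control: all 3 beta-catenin arrays lay above, and all 3 ICAT arrays below, the control arrays. The test of the difference itself, beta-catenin minus ICAT, gave 2.94 on the log2 scale (limma adjusted p = 1.83e-09).

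A signal was also seen in probe sets outside the comparisons, those shared by several Sprr2a genes, whose transcripts they cannot tell apart. In a fit of 33545 probe sets, chosen after seeing the data, the probe set of Sprr2a1, Sprr2a2 and Sprr2a3 read 9.86, 9.63 and 9.73 in beta-catenin cells and 9.44, 9.23 and 9.02 in ICAT cells, against 7.91, 8.13 and 8.11 in control cells. Its log2 differences from control were 1.69 in beta-catenin cells (3.23-fold, limma adjusted p = 3.97e-07) and 1.18 in ICAT cells (2.27-fold, adjusted p = 1.32e-05). That of Sprr2a1 and Sprr2a2 read 9.89, 9.82 and 9.44 in beta-catenin cells and 9.43, 9.32 and 9.18 in ICAT cells, against 8.24, 8.09 and 8.16 in control cells, with differences of 1.55 (2.94-fold, adjusted p = 1.09e-06) and 1.15 (2.21-fold, adjusted p = 2.2e-05). The remaining Sprr2a probe set was under log2 5 on every array. The probe set shared by Krt14 and Krt17 was not called (-0.11 and -0.07 against control).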

How the results depend on the processing

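No call of a member changed direction under any of the 18 alternatives. Apart from Sprr1b, the largest differences, those of Sprr1a, Cldn6, Pkp2, Cldn1, Krt8, Krt18 and Krt80, kept their calls wherever they were tested. Sprr1b kept its calls too, but this is no support. It passed the filter only through its beta-catenin arrays and fell under it when 1 of them was left out. Taking the mean of all probe sets moved Pkp2 to 1.14 and Cldn1 to -0.45 in beta-catenin against control cells and Pkp2 to -0.31 in ICAT against control cells; by construction this mixes in dim probe sets. The 5 members lower in beta-catenin than control cells became 2 with a filter at log2 7, 8 with only the 2 groups fitted and 18 with array weights, and the 10 lower than in ICAT cells became 6 with only the 2 groups; for the last 3 counts the cause was not tested. Leaving out 1 array gave 3 to 8 members lower and 3 to 5 higher in beta-catenin against control, 4 to 6 lower and 4 to 7 higher in ICAT against control, and 5 to 17 lower and 5 to 7 higher in beta-catenin against ICAT cells. With a limit of log2 4 in place of 5, 7 members never reached it, and with 6, 40. Same-numbered arrays of different groups did not all deviate together (correlations from -0.129 to 0.41, across genes, and ICAT replicate 2 went best with beta-catenin replicate 1), so the numbers were not taken as pairs. With the replicate number as a block, 5 members rose and 6 fell in beta-catenin against control, 6 and 4 in ICAT against control, and 7 were higher and 12 lower in beta-catenin against ICAT cells, where the call of Krt88 was lost (adjusted p = 0.0519); Krt14 and Cldn13 in beta-catenin against control and Cldn12, Krt20 and Pkp1 in beta-catenin against ICAT cells gained one. Of 150 pairs of a tested member and a comparison that were not called, 34 gained a call under some setting, 26 of them when an array was left out and 21 with array weights.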
